A study of Mus musculus with 3 samples.

Results

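The genes described here are Vcam1, Fn1, which encodes fibronectin, and 8 integrin chains of stromal cells: the alpha chains Itga4, Itga5, Itga8, Itga11 and Itgav and the beta chains Itgb1, Itgb3 and Itgb5. They were taken by symbol from a table of 19938 genes, and all 10 were measured, each by 1 probe set that carried a single gene symbol. The arrays compared 2 kinds of stromal cell sorted from mouse bone marrow of tibia, femur and pelvis at baseline. On 2 arrays were CXCL12-abundant reticular cells, called CAR cells, of 2 mice, read here as 1 mouse per array, with the genotype CXCL12-GFP knock-in; the sources do not say whether 1 or both Cxcl12 copies carried it. On the third were PDGFRa+ Sca+ cells without CD45 or lineage antigens (PaS), pooled from 3 mice of the genotype Prx1-Cre Rosa26Ai9/+ Cxcl12gfp/+. Prx1-Cre is driven by regulatory sequence of Prrx1, active in limb mesenchyme, and Rosa26Ai9 is a fluorescent reporter that Cre switches on. A GFP allele of Cxcl12 was thus shared by every sample, while cell type, Cre and reporter changed together. The sources used here give no ages.

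Vcam1 is an immunoglobulin-type adhesion molecule on the surface of marrow stroma and endothelium, to which blood progenitors hold through integrin alpha 4 beta 1. Fibronectin is a large secreted glycoprotein that cells assemble into matrix fibrils. Integrins are receptors made of 1 alpha and 1 beta chain: alpha 5 beta 1 is the classical fibronectin receptor, alpha 4 beta 1 binds both Vcam1 and an alternatively spliced stretch of fibronectin, the alpha v integrins bind fibronectin and vitronectin, alpha 8 beta 1 binds nephronectin and fibronectin, and alpha 11 beta 1 binds fibrillar collagen.

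The labels were checked against markers first. Cxcl12 stood at log2 intensities of 10.94 and 11.11 on the CAR arrays and 7.76 on the array labelled PaS, and all 16 genes on the list for CAR and leptin receptor-positive stroma were higher in CAR cells. The genes of that list, like those of the others, were chosen with earlier results of these data known, so this is no independent check. Pdgfra, a gene of the PaS gate, stood at 7.52 and 7.97 in CAR cells and only 4.33 on the array labelled PaS. Ptprc, which encodes the excluded CD45, stood at 5.11 and 5.01 in CAR cells and 8.27 on that array. These 2 levels go against its label, so "the array labelled PaS" is used below. The gene of Sca, the other positive marker of the gate, was not among the marker genes read here. The list of Sca-1+ progenitors and fibroblasts was mixed. Of its 12 genes, 6 were lower in CAR cells, 1, Pdgfra, was higher, and 5 passed in neither direction. Among the lower ones were Dpt, a fibroblast matrix protein, at 2.60 and 2.27 against 8.10, and Cd34, a progenitor surface protein, at 2.53 and 2.23 against 4.73. The medians over all genes were close, at 3.74, 3.75 and 3.77, but values were spread more widely on the CAR arrays, with 5th percentiles of 1.87 and 1.69 against 2.40 and 95th percentiles of 6.69 and 6.93 against 6.16. Dim genes therefore tend to read lower and bright genes higher on the CAR arrays, and the part of this in the differences below was not tested beyond quantile normalization, which equalises the spread. The PaS side is 1 array with no replicate. The only replicate spread comes from the CAR arrays, and p-values assume that the third array varies as they do. An exact permutation of 2 arrays against 1 cannot go below p = 0.333, so the tests below are limma's moderated test over all genes (two-sided, adjusted by Benjamini-Hochberg, threshold 0.05). The moderation draws each gene's error toward a value common to all genes, with 4.20 prior against 1 residual degrees of freedom. The standard errors (SE) below thus rest more on that common value than on the gene's own CAR arrays. In sorted bulk samples, fewer cells of a type and less RNA per cell cannot be told apart.

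Vcam1, Itga11, Itgav and Itgb1 were higher in CAR cells, and Fn1 was lower. These 5 of the 10 genes passed the test, against 15.0% of all genes: 4 were higher, where 8.56% of all genes were, and 1 was lower, where 6.42% were. Without a test, both CAR arrays lay above the array labelled PaS for 7 of the 10 (37.4% of all genes) and below it for 2 (46.8%), and they lay on either side of it for Itgb3. The median difference of the 10 was 0.66 log2 units, against −0.10 over all genes. All of them but Itga8 belong to the 9969 brighter genes, those with a mean at or above the median level. Of these brighter genes 16.6% were higher and 4.06% lower in the same fit, with a median difference of 0.37, against 0.62 for the 9.

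**Figure D1:**
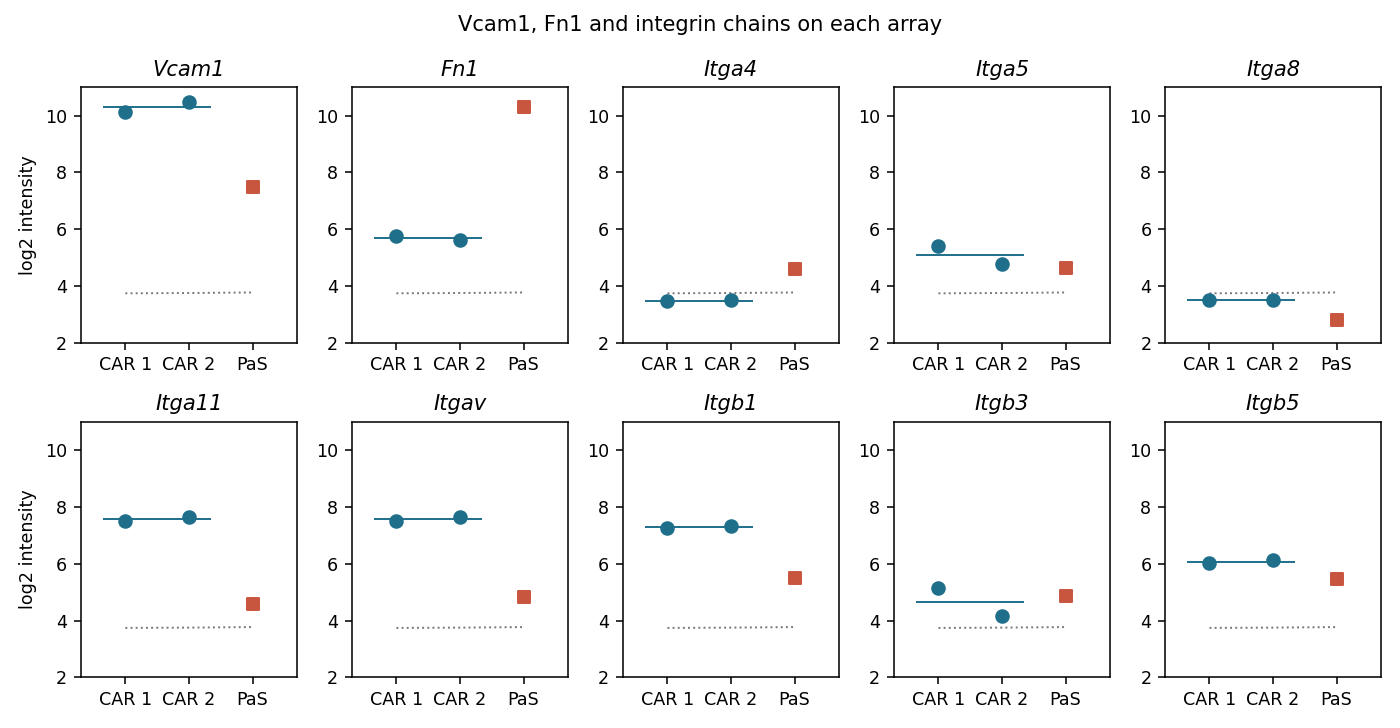
Log2 intensity (vertical axis) of the 10 genes on CAR array 1, CAR array 2 (circles, with their mean as a line) and the array labelled PaS (squares); the dotted line joins the medians of all genes on the arrays. Vcam1, Itga11, Itgav and Itgb1 sit higher in both CAR arrays, Fn1 sits far lower, and the 2 CAR points of Itgb3 stand on either side of the square; heights in different panels come from different probes and are not comparable.

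Of the ligands, Vcam1 had log2 intensities of 10.14 and 10.46 on the CAR arrays and 7.48 on the array labelled PaS. Both CAR values were high and above the single value, as they were for 37.4% of all genes, while 46.8% had both below it. The difference was 2.82 ± 0.30 log2 units (SE, 2 CAR arrays against 1; limma adjusted p = 0.0136), and the CAR arrays themselves were 0.32 apart. It was also well above the median of all genes on the array labelled PaS. There were 223 of 19938 genes with a larger difference toward CAR cells. Endothelial cells also make Vcam1, and of their 12 markers 4 were lower in CAR cells and 0 higher, with summed linear intensities of 131 and 115 on the CAR arrays and 313 on the array labelled PaS. The endothelial cadherin Cdh5 stood at 2.91 and 3.18 against 6.28, and Pecam1 at 4.26 and 3.76 against 4.92, the latter without passing (limma adjusted p = 0.126). Plvap, another endothelial gene, had 3.69 and 3.57 on the CAR arrays, above 2.98, without passing (limma adjusted p = 0.172). The part of endothelial cells in the Vcam1 levels was not tested.

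Fn1 ran the other way, with 5.78 and 5.63 on the CAR arrays and 10.31 on the array labelled PaS. The CAR values were the low ones and 0.15 apart, but still above the median of all genes. The difference was −4.61 ± 0.28 log2 units (SE; limma adjusted p = 0.00810), which is 24.5-fold lower in CAR cells. Only 3 genes of 19938 had a larger difference in that direction. These 2 ligands of alpha 4 beta 1 therefore moved in opposite directions.

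Fn1 was highest on the array labelled PaS. The summed intensity of every cell type list was highest there too, except for CAR and leptin receptor stroma and smooth muscle. The lists in this paragraph are some of these, and the neutrophil list, given further below, had the largest sum there. Of 12 cartilage and joint lining genes, 5 were lower in CAR cells, 0 were higher and 7 passed in neither direction. Their summed linear intensity was 219.9 and 247 on the CAR arrays and 2151 on the array labelled PaS, where it came mainly from 1 gene, Prg4. Prg4, the lubricant of joint surfaces, stood at 4.17 and 5.61 against 10.46. Acan, the cartilage proteoglycan, stood at 2.68 and 2.81 against 3.90 and did not pass (limma adjusted p = 0.0536). Col2a1, at 4.85 and 4.43 against 4.83, and Sox9, at 5.44 and 4.88 against 4.98, were also among those that did not pass. Of 12 genes that mark Sca-1+ progenitors or fibroblasts, 6 were lower in CAR cells and 1, Pdgfra, higher. Their sums were 651 and 893 against 2158, and the last came mainly from 1 gene, Dcn, at 7.91 and 8.66 against 10.18. Thy1, a surface protein of fibroblasts and T cells, stood at 3.56 and 3.69 against 7.67. Of 12 macrophage and monocyte genes, 4 were lower and 0 higher, with sums of 563 and 532 against 2369. These sums came mainly from 1 gene, Lyz2, at 8.68 and 8.39 against 10.91. Of the defining genes, Adgre1 stood at 2.61 and 2.29 against 3.23 and Csf1r at 4.02 and 4.26 against 5.18. Neither passed (limma adjusted p = 0.139 and 0.0720). Of 12 pan-leukocyte genes, 8 were lower and 0 higher, with sums of 626 and 877 against 3263. Their part in the Fn1 result was not tested. No marker was at 0, since these intensities have no true zero.

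**Figure D2:**
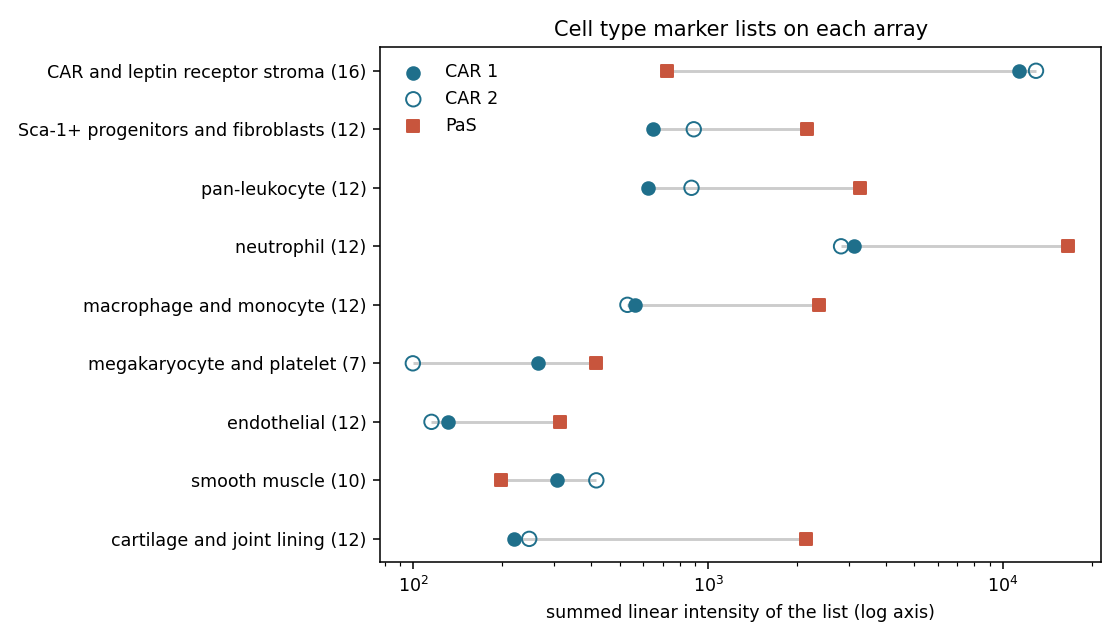
Summed linear intensity (horizontal log axis) of each cell type marker list on CAR array 1 (filled circle), CAR array 2 (open circle) and the array labelled PaS (square), with the number of measured genes in brackets. The CAR and leptin receptor list is far higher on the CAR arrays, and the smooth muscle list is also higher there through 1 gene, Myl9; the other 7 lists are highest on the array labelled PaS, and the CAR arrays stand apart from each other most clearly for the megakaryocyte and platelet list.

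By distance between the 3 array values, each gene taken about its own mean, the genes nearest to Vcam1 among 9460 brighter ones were Bcl6, a transcriptional repressor, Hp, haptoglobin, and Fst, an antagonist of activin, at distances of 0.03, 0.04 and 0.04 log2 units. Nearest to Fn1 were Clec3a, a cartilage lectin, Camp, a neutrophil granule peptide, and Thy1, at 0.05, 0.28 and 0.50. With 3 arrays this likeness is hardly more than a like difference between the groups.

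Among the beta chains, Itgb1, the partner of most of the alpha chains here, had values of 7.25 and 7.33 on the CAR arrays and 5.50 on the array labelled PaS. The CAR values were close together and high. The difference was 1.80 ± 0.28 log2 units (SE; limma adjusted p = 0.0245), or 3.47-fold. Itgb5, a partner of alpha v in vitronectin binding, stood at 6.01 and 6.12 against 5.45. Both CAR values were above the single value, but the difference of 0.62 did not pass (limma adjusted p = 0.185). The 95% interval of the fit, not adjusted for the number of genes, was −0.09 to 1.33. After quantile normalization the Itgb5 difference was 0.03 (limma adjusted p = 0.937).

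Itgb3, which pairs with alpha v and, in platelets, with alpha IIb, stood at 5.15 and 4.18 on the CAR arrays and 4.85 on the array labelled PaS. The CAR arrays were 0.97 apart, with the third value between them. The difference was −0.19 (95% interval −1.37 to 0.98; limma adjusted p = 0.796), and its sign depended on the array: 0.29 with CAR array 1 alone and −0.68 with CAR array 2 alone. Of 7 megakaryocyte and platelet genes, 2 were lower in CAR cells and 0 higher, and their sum was likewise unequal, at 265 and 99.5 on the CAR arrays and 415 on the array labelled PaS. That gap came mainly from the platelet chemokine Ppbp, at 7.41 and 4.26 against 8.0. The defining markers Pf4, at 4.27 and 4.33 against 5.88, and Gp9, at 3.85 and 3.40 against 3.43, were less unequal between CAR arrays, and the part of these cells in the Itgb3 values was not tested.

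Among the alpha chains, Itga11, a collagen receptor chain of mesenchymal cells, stood at 7.52 and 7.64 in CAR cells against 4.59. The groups were far apart compared with the 0.12 between CAR arrays. Its difference was 2.99 ± 0.28 log2 units (SE; limma adjusted p = 0.0116), or 7.95-fold, and 187 genes had a larger one. Itgav, the shared alpha chain of the vitronectin and fibronectin receptors, stood at 7.49 and 7.63 against 4.82. It too was high on both CAR arrays, with a difference of 2.74 ± 0.28 (SE; limma adjusted p = 0.0129), or 6.67-fold, and 254 genes had a larger one. The summed intensity of the CAR and leptin receptor stroma list moved the same way as these chains, at 11308 and 12938 against 724. Of 10 smooth muscle genes, whose cells carry alpha v and beta 1 too, only Myl9 was higher in CAR cells and 0 were lower, with sums of 307 and 417 against 198. Without Myl9 the sums were 151 and 169 against 192, in the other direction. Acta2 stood at 3.28 and 3.35 against 3.63 and Myh11 at 4.26 and 4.09 against 3.77. The part of smooth muscle cells was not tested.

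The alpha chains best known for binding fibronectin and Vcam1 did not pass. Itga5 stood at 5.39 and 4.76 on the CAR arrays and 4.61 on the array labelled PaS. CAR array 2 was nearly level with that array, so the difference of 0.46 (95% interval −0.47 to 1.39; limma adjusted p = 0.422) was 0.78 with CAR array 1 alone and 0.14 with CAR array 2 alone. After quantile normalization the Itga5 difference was 0.05 (limma adjusted p = 0.937). Itga4 stood at 3.46 and 3.49 in CAR cells and 4.59 on the array labelled PaS. Both CAR values were under the medians over genes, where a low level and background cannot be told apart here. The difference of −1.11 (95% interval −1.82 to −0.40) missed the threshold at limma adjusted p = 0.0564, and passed it after centring (adjusted p = 0.0408), quantile normalization (0.00912), a filter on dim genes (0.0481) and robust moderation (0.0439), with limma in each; over the 7 tested alternatives it ran from 0.00912 to 0.0792. Itga4 is also carried by most leukocytes, whose markers were higher on the same array as given above. The part of leukocytes in the Itga4 values was not tested. Itga8, at 3.52 and 3.50 against 2.81, was under the median over genes on each of the 3 arrays. Its difference of 0.70 did not pass (95% interval −0.01 to 1.41; limma adjusted p = 0.146), but did after quantile normalization, at 1.08 (limma adjusted p = 0.0202).

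**Figure D3:**
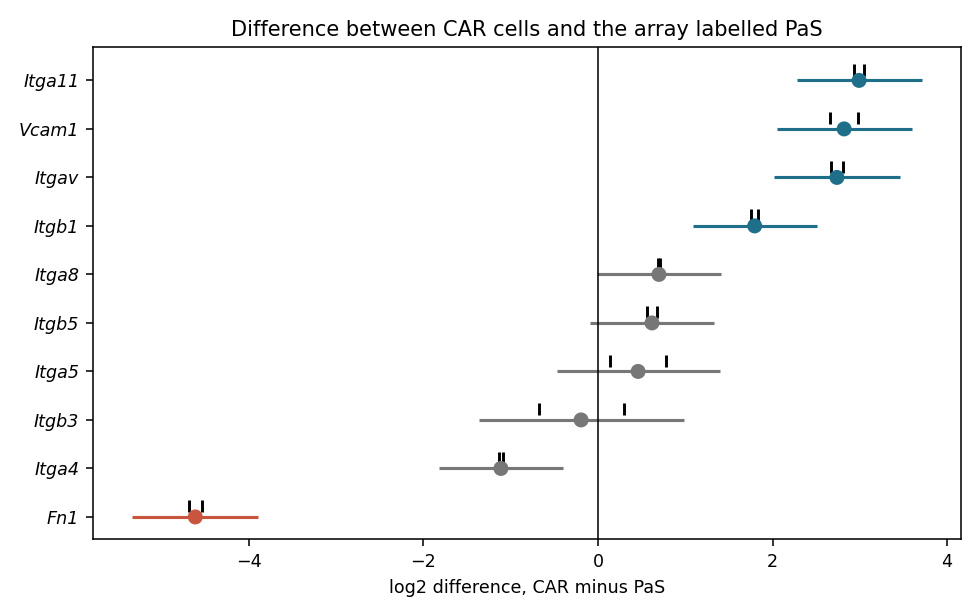
Difference in log2 intensity, CAR minus the array labelled PaS (horizontal axis), for each gene, with the 95% interval of limma as a line and the values for each CAR array alone as ticks; blue passed the test as higher, red as lower and grey did not pass. Itga11, Vcam1, Itgav and Itgb1 lie to the right at 1.80 to 2.99, Fn1 lies to the left at −4.61, and the ticks of Itgb3 fall on both sides of 0.

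The sequences just before the starts of the 3 integrin genes that were higher in CAR cells, and of Itga5, which did not pass, are given for context. They are the last 250 bases before the RefSeq start (build GRCm38.p6), 5′ to 3′ on the strand of the gene. Capitals mark the letters ACTTCC or GGAAGT, the core bound by ETS factors, and GGGCGG or CCGCCC, the core bound by Sp1 and KLF factors, searched on both strands; these motifs were chosen after the sequences were seen and do not overlap each other.
Itga11 promoter, chr9:62677605-62677854, + strand: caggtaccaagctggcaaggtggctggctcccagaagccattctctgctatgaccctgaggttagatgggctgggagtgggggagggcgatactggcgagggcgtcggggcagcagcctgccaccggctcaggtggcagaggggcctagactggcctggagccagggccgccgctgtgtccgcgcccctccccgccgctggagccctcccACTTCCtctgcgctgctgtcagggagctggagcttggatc
Itgav promoter, chr2:83724147-83724396, + strand: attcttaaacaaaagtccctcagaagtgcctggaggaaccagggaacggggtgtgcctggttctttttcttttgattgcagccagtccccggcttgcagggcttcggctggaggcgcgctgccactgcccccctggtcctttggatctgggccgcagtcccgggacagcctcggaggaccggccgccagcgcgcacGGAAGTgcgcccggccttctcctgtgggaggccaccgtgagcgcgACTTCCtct
Itgb1 promoter, chr8:128685404-128685653, + strand: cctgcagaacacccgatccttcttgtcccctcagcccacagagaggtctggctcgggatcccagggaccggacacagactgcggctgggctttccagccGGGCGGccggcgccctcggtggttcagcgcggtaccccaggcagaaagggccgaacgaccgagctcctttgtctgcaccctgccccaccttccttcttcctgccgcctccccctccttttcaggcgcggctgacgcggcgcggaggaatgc
Itga5 promoter, chr15:103366792-103367041, - strand: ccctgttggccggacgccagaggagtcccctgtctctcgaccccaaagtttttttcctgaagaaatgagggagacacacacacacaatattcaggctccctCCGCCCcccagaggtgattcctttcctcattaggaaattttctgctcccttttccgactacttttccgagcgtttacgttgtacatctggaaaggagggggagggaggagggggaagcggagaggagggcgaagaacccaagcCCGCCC
The ETS letters occurred once in the Itga11 sequence, 40 bases before the start, and in the Itgav sequence 54 and 9 bases before it. They occurred in neither the Itgb1 nor the Itga5 sequence. The Sp1 letters occurred in Itgb1 at 151 bases and in Itga5 at 149 and 6 bases before the start, but not in Itga11 or Itgav. Of the 7 members with an entry in the table, 2 held the ETS and 4 the Sp1 letters. Over all 32851 sequences of the same length, 19.7% held the ETS and 32.7% the Sp1 letters. GC content was 68.4%, 64.4%, 68.0% and 55.6% for Itga11, Itgav, Itgb1 and Itga5, against a median of 52.4%. These are matches of letters only.

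Of 18 other integrin chains, 2 were higher in CAR cells (Itga1 and Itga9) and 3 lower (Itgb2, Itgam and Itga6), with a median difference of −0.31; over all genes 8.56% were higher and 6.42% lower. Itga1, a collagen receptor chain like Itga11, stood at 7.61 and 7.35 against 4.22, a 9.57-fold difference (limma adjusted p = 0.0114). The leukocyte chains Itgb2 and Itgam were lower in CAR cells, Itgb2 at 4.15 and 4.34 against 7.13 (limma adjusted p = 0.0125) and Itgam at 4.98 and 4.14 against 6.88 (0.0320). The pan-leukocyte genes moved the same way, as did 9 of 12 neutrophil genes, with 0 higher in CAR cells and sums of 3111 and 2822 against 16653. The neutrophil sum on the array labelled PaS came mainly from S100a8 and S100a9. S100a8, a calcium-binding protein abundant in neutrophils, stood at 10.05 and 9.68 against 12.42, and S100a9 at 10.03 and 10.15 against 12.42. The part of blood cells in these values was not tested. Itga6, a laminin receptor chain, stood at 3.20 and 2.05 against 4.83 and only just passed (limma adjusted p = 0.0496); its CAR arrays were 1.15 apart. Itga2b, the platelet partner of Itgb3, stood at 4.09 and 3.83 against 5.05 and did not pass (limma adjusted p = 0.0659).

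Of 26 measured genes for other ligands of integrins, 6 were higher in CAR cells and 1 lower, with a median difference of 0.45. The shares over all genes were 8.56% and 6.42%. Among the 9969 brighter genes they were 16.6% and 4.06%, with a median difference of 0.37, close to that of the ligands. Bone sialoprotein, Ibsp, a mineral matrix protein with an integrin-binding site, stood at 11.02 and 11.60 against 6.80 (limma adjusted p = 0.0103). Tenascin C, Tnc, stood at 9.11 and 9.46 against 5.04 (0.00914), the laminin chain Lama4 at 6.71 and 7.49 against 3.98 (0.0188), and the matricellular protein Ccn2 at 8.95 and 8.54 against 6.28 (0.0187). Npnt, nephronectin, the ligand of alpha 8 beta 1, and Vtn, vitronectin, were near the medians of all genes on the arrays and did not pass, with differences of 0.35 and 0.56 (limma adjusted p = 0.485 and 0.266); these were chosen for naming after their values were seen.

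Genes for proteins that bind fibronectin or take part in its matrix assembly were mostly higher in CAR cells, opposite to Fn1 itself. Of 23 measured, 13 were higher and 2 lower, Dcn and Plaur, with a median difference of 1.50. Over all genes 8.56% were higher and 6.42% lower, and over the 9969 brighter genes 16.6% and 4.06%. Fbln5, an elastic fibre protein, stood at 9.85 and 10.09 against 4.85 (34.7-fold; limma adjusted p = 0.00810). The membrane protease Mmp14 stood at 7.97 and 8.06 against 4.99 (8.16-fold; 0.0116), and the heparan sulfate carrier Sdc2 at 7.80 and 7.75 against 4.87 (7.49-fold; 0.0119). Tnc belongs to this list too.

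Of 35 measured genes of the integrin adhesion complex, the proteins that join integrin tails to actin, 9 were higher in CAR cells and 3 lower, with a median difference of 0.68. Over all genes 8.56% were higher and 6.42% lower. Of the 9969 brighter genes 16.6% were higher and 4.06% lower, with a median difference of 0.37. Tns3, a tensin, stood at 8.55 and 8.39 against 3.85 (24.6-fold; limma adjusted p = 0.00810). Tgfb1i1, a relative of paxillin also called Hic-5, stood at 7.12 and 7.52 against 3.57 (0.0107), Enah, an actin regulator, at 7.17 and 7.25 against 4.39 (0.0125), and Parva, a partner of integrin-linked kinase, at 5.99 and 6.86 against 3.87 (0.0276). The 3 lower genes were Pxn, paxillin, Ptk2b, a kinase related to focal adhesion kinase, and Parvg, the parvin of blood cells, and they moved with the pan-leukocyte genes, whose part was not tested. Quantile normalization moved the median of the adhesion complex genes to 0.071 and the median of the other ligands to 0.27.

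**Figure D4:**
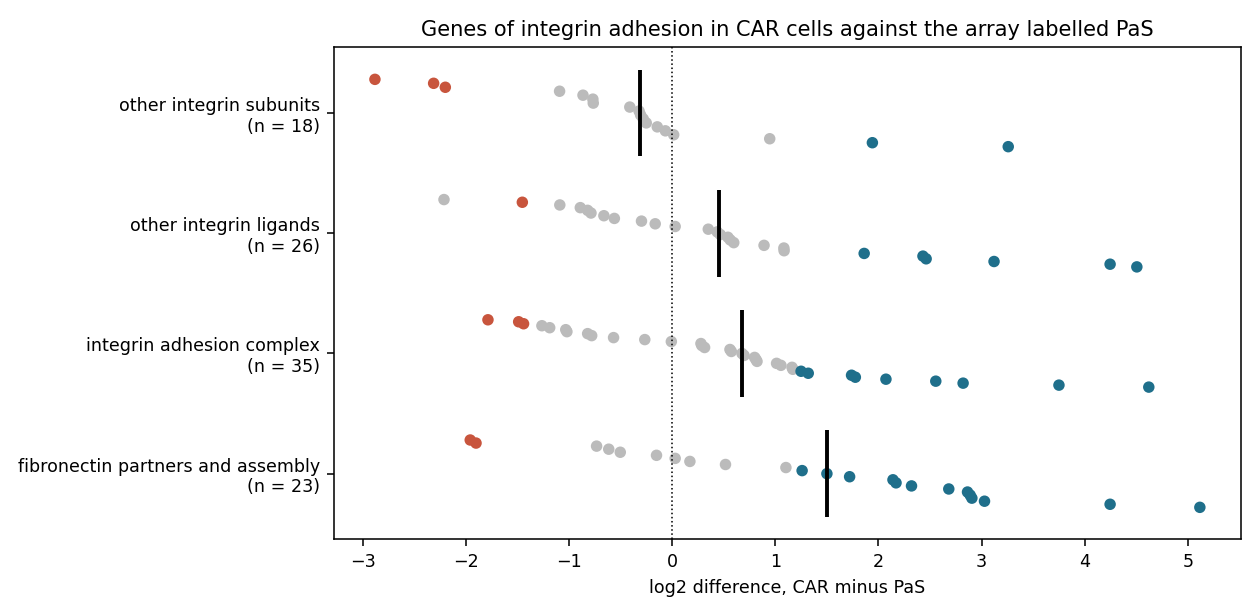
Difference in log2 intensity, CAR minus the array labelled PaS (horizontal axis), of every measured gene in 4 lists; each point is a gene, blue passed the test as higher, red as lower and grey did not pass, and the black bar is the median of the list. The medians run from −0.31 for the other integrin subunits to 1.50 for the fibronectin partners, and each list holds points on both sides of 0.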

How the data were processed

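RNA of sorted cells was amplified from 500 pg to 50 ng by a whole-transcript method and hybridised to 1-colour Affymetrix arrays, per the labels' protocols. The intensity values deposited by the authors are on a linear scale, 1 per probe set, and come from RMA in Affymetrix Expression Console, per the submitters' processing notes; the sources used here give no versions and no genome build. Values were log2-transformed without a pseudocount. Of 35556 probe sets, 21789 carried 1 symbol in the platform annotation; 1621 with several symbols and 12146 unnamed here were left out. The brightest probe set stood for each of 999 genes with several. CAR and PaS were compared with limma 3.58.1 in R 4.3.3 (1 residual and 4.20 prior degrees of freedom). The fit was checked on simulated data in which all 3 arrays varied alike. That check therefore cannot test whether the array labelled PaS varies as the CAR arrays do. No detection calls were used, so dim values are uncertain, and 3 arrays limit the precision. The genes and lists were chosen with earlier results of these data known. Named are the 10 genes, the 3 nearest to Vcam1 and to Fn1, and defining markers. Up to 4 called genes with the largest difference are named per pathway list. Itga9, Itga2b, Npnt, Vtn, Ppbp, Myl9, Plvap, Dpt, Cd34 and the 2 genes of the gates were named after their values were seen. So were Dcn, Plaur, Pxn, Ptk2b, Parvg, Thy1, Lyz2, Col2a1 and Sox9. Alternatives were centring, quantile normalization, the mean of probe sets, a filter on dim genes, other moderation, a pseudocount of 8 and leaving out each CAR array; the smooth muscle list without Myl9 was added after the data were seen.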

Additional observations from a re-analysis of the deposited data

How the results depend on the processing

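Vcam1, Fn1, Itga11, Itgav and Itgb1 kept their direction and stayed past the threshold in all 7 alternatives with a test, and kept their direction without either CAR array, where 1 array against 1 leaves no test and no count of calls. Their differences ran from 2.41 to 2.98, −4.99 to −4.42, 2.50 to 3.05, 2.18 to 2.81 and 1.19 to 1.83 log2 units. Itga4, not past the threshold as reported, passed it at −1.08 after centring, −1.35 after quantile normalization, and −1.11 with the filter on dim genes or robust moderation; Itga8 passed at 1.08 after quantile normalization and is absent under the filter. Over all genes, 2987 calls became 5467 after quantile normalization and 853 with a pseudocount of 8. The balance of 1706 higher and 1281 lower became 2636 and 2831 after quantile normalization, 1613 and 1751 with an intensity trend, and 2062 and 510 with the filter, while 5 to 7 of the 10 genes were called throughout. After quantile normalization the median differences were 0.27 for other ligands, 0.071 for the adhesion complex and 1.01 for fibronectin partners. With the filter they were −0.20 for other integrin subunits, 0.57, 0.75 and 2.14 for those lists, and with the pseudocount −0.16 for the subunits, 0.31 for the ligands and 0.58 for the adhesion complex. Leaving out a CAR array gave −0.42 to −0.32 for the subunits and 0.32 to 0.43 for the ligands. The cause of these shifts was not tested. No paired analysis was possible because the 2 groups came from different mice of different genotypes. Replicate numbers count arrays within a group and link none across groups. Signal over background was not measured, which limits Itga4 and Itga8 most.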
